A study of Fukomys damarensis and Heterocephalus glaber and Cavia porcellus with 28 samples.

Results

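Bile acids are made from cholesterol in hepatocytes, conjugated to an amino acid, pumped into bile and recovered from the gut. The genes described here are 10 genes of that cycle: the hydroxylases Cyp7a1, Cyp7b1, Cyp8b1 and Cyp27a1, the conjugation enzymes Slc27a5 and Baat, the transporters Slc10a1 and Abcb11, and the nuclear receptors Nr1h4 and Nr0b2. They were taken by symbol from the liver table of 13928 genes, whose rows carry mouse Ensembl identifiers. Of the 10, 8 had a row, and all 8 passed the filter on low values. Cyp8b1, the sterol 12-alpha-hydroxylase of cholic acid synthesis, and Slc10a1, the sodium-dependent uptake carrier, were not analysed here.

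The classic pathway starts with Cyp7a1, the rate-limiting cholesterol 7-alpha-hydroxylase of the endoplasmic reticulum. The alternative pathway starts with Cyp27a1, the mitochondrial sterol 27-hydroxylase, and continues with Cyp7b1, an oxysterol 7-alpha-hydroxylase. Bile acids feed back through their receptor FXR, encoded by Nr1h4, which induces Nr0b2 (SHP), a repressor of Cyp7a1.

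Ribosomal-RNA-depleted total RNA was sequenced from livers of 4 naked mole-rats (Heterocephalus glaber, males of 13 to 17 months), 5 Damaraland mole-rats (Fukomys damarensis, 36 or 48 months, 4 males and 1 female), 3 guinea pigs (Cavia porcellus, males of 2.3 months) and 2 mice (Mus musculus, males of 2 months). No treatment is given, nor a mouse strain. Each liver came from a separate animal, and 1 Damaraland mole-rat is labelled 36 months for its liver but 48 months for its heart. The mole-rats are the species of interest and the guinea pig and mouse the outgroups. Age differs between all 4 species, so age and species cannot be told apart.

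Values are variance-stabilised read counts on a log2-like scale, on which a gene with 0 reads stands at 4.29 in liver. On this scale a 2-fold change moved the value by 0.39 from 10 scaled reads and by 0.97 from 1000 scaled reads. Scaled reads are whole reads recovered by inverting the transform, divided by the library's size factor. Liver libraries held 11220505 to 21467939 recovered reads. Whether the counts were corrected for differences in transcript length between species is not given in the sources used here. The levels of one gene in different species, and of different genes, are therefore not read as molar amounts. Albumin ranked 1 among all genes in each of the 14 livers. The 7 measured hepatocyte markers summed to 1554484 to 2899596 scaled reads in naked mole-rat, 1581347 to 2200938 in Damaraland mole-rat, 826367 to 1495702 in guinea pig and 1119651 to 1268699 in mouse. These sums, mostly albumin, did not overlap between mole-rats and outgroups. In the test described next, 1 of the 7 markers was called higher on average in the mole-rats (Apoa1) and none was called lower. Apoa1 was nearly absent from guinea pig (122 mean scaled reads) and was lower in naked and Damaraland mole-rats than in mouse (-2.50 and -2.29, both called). Mitochondrially encoded genes took at most 0.0172% of reads in Damaraland livers and 2.88% to 7.08% in the others; leaving them out of a fit on recovered reads changed no count of called bile acid genes.

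Species were compared with limma on the deposited values, in one fit of all 14 livers. A difference was called at a Benjamini-Hochberg adjusted p under 0.05, over 10887 genes tested, and an absolute size of at least 1. The mean of the 2 mole-rat species minus the mean of the 2 outgroups is the main contrast. In it 5 of the 8 bile acid genes were called higher in mole-rats (Cyp7a1, Cyp27a1, Slc27a5, Baat and Nr0b2) and 0 lower, where 28.1% of all genes tested were called, 15.1% higher and 13% lower. The median difference of the 8 genes was 1.34, against 0.02 over all genes tested. Called with the same sign in each of the 4 pairings of a mole-rat with an outgroup were 3 of 8, Cyp27a1, Slc27a5 and Baat, all higher, where 6.29% of all genes were so called, 3.42% higher and 2.87% lower. In the same 3 genes every mole-rat liver lay above every outgroup liver, as in 8.74% of all genes tested, and the reverse, seen in 7.37%, held for 0 of the 8. In whole tissue, fewer cells of a type and less RNA per cell cannot be told apart, and the p-values measure only the spread between these animals.

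**Figure D1:**
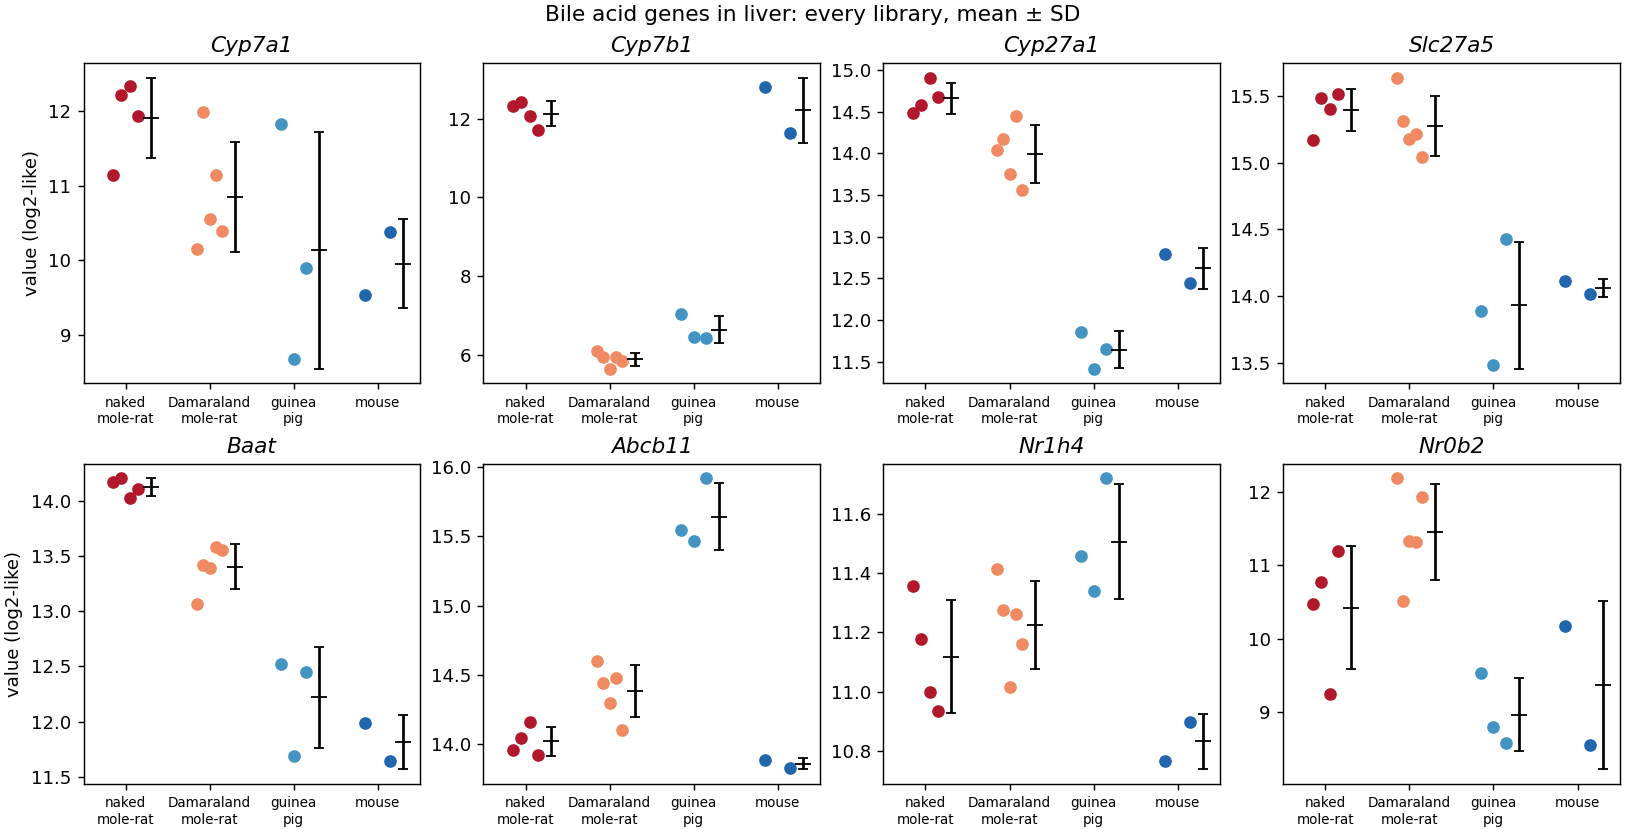
Variance-stabilised liver values (log2-like, vertical axis, scale differing by panel) of the 8 measured bile acid genes in each of 14 livers, by species. Coloured points are single animals and black bars the mean ± SD. Cyp27a1, Slc27a5 and Baat are higher in all 9 mole-rat livers than in all 5 outgroup livers, and Cyp7b1 is high in naked mole-rat and mouse and low in Damaraland mole-rat and guinea pig.

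Cyp27a1 (ENSMUSG00000026170) opens the alternative pathway and also oxidises the side chain of sterol intermediates in the classic one. Its values were 14.48, 14.57, 14.91 and 14.67 in the naked mole-rats and 14.04, 14.17, 13.75, 14.45 and 13.56 in the Damaraland mole-rats. In the guinea pigs they were 11.86, 11.42 and 11.66, and in the mice 12.80 and 12.45. No 2 species overlapped, and the order was naked mole-rat, Damaraland mole-rat, mouse, guinea pig. The mole-rats were higher than the outgroups by 2.19 (SE 0.16, limma adjusted p 2.23e-09). Mean scaled reads were 25962 for naked mole-rat, 16657 for Damaraland mole-rat, 6312 for mouse and 3192 for guinea pig, an 8.13-fold range between the outer species. The neighbours at either end of the order differed by less than the size threshold: naked minus Damaraland mole-rat was 0.66 (95% interval 0.27 to 1.06, adjusted p 0.00484) and guinea pig minus mouse was -0.98 (95% interval -1.51 to -0.44, adjusted p 0.00342). The latter passed the size threshold without guinea pig replicate 1 (-1.08) or mouse replicate 2 (-1.15).

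Cyp7b1 (ENSMUSG00000039519) did not separate the mole-rats from the outgroups but split both pairs. The enzyme hydroxylates the oxysterols that Cyp27a1 and other enzymes produce. Values were 12.31, 12.43, 12.07 and 11.71 in the naked mole-rats and 12.80 and 11.63 in the mice. They were 6.09, 5.94, 5.65, 5.94 and 5.83 in the Damaraland mole-rats and 7.04, 6.44 and 6.43 in the guinea pigs. The high and the low pair of species were far apart, with no library between 7.04 and 11.63. Naked exceeded Damaraland mole-rat by 6.24 (SE 0.22, adjusted p 1.32e-13). Guinea pig minus mouse was -5.58 (SE 0.29, adjusted p 7.75e-11). In mean scaled reads naked mole-rat, at 4515, was 168-fold above Damaraland mole-rat, at 26.9, and mouse, at 5126, was 77.1-fold above guinea pig, at 66.5.

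The Damaraland livers held 23 to 31 reads of Cyp7b1 each, and none was at 0. How reads of each species were assigned to the mouse identifier is not given in the sources used here and could not be checked for this gene, so the low counts in Damaraland mole-rat and guinea pig, and the folds from them, describe reads assigned to this row. Within the high pair, naked mole-rat minus mouse was -0.09 (95% interval -0.68 to 0.50, adjusted p 0.79). Within the low pair, Damaraland mole-rat minus guinea pig was -0.75 (adjusted p 0.0101), under the size threshold, and with voom on the recovered reads, which are not compressed, it was -1.29 (adjusted p 0.0162), past it. The average contrast of Cyp7b1, -0.42 (adjusted p 0.0507), sets 1 high and 1 low species against 1 high and 1 low species. A gene called higher in naked mole-rat and mouse than in both Damaraland mole-rat and guinea pig was seen in 1.89% of genes tested. The pattern was defined from the values of Cyp7b1 itself, and shares of other splits of the species into pairs are not given here.

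Cyp7a1 (ENSMUSG00000028240), the first enzyme of the classic pathway, was highest on average in naked mole-rat, and animals of one species differed widely. Naked mole-rat values were 11.14, 12.22, 12.35 and 11.94, and Damaraland values 10.15, 11.99, 10.56, 11.14 and 10.39. Guinea pig values were 11.83, 8.67 and 9.90, and mouse values 9.53 and 10.37. Of these groups, only naked mole-rat and mouse did not overlap. The mole-rats were higher by 1.34 (SE 0.41, adjusted p 0.00838), with naked mole-rat 1.78 above guinea pig (adjusted p 0.00935) and 1.96 above mouse (adjusted p 0.0115). Damaraland mole-rat was called against neither outgroup, at 0.71 above guinea pig (95% interval -0.40 to 1.83, adjusted p 0.248) and 0.89 above mouse (95% interval -0.39 to 2.17, adjusted p 0.209).

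Naked minus Damaraland mole-rat was 1.07 for Cyp7a1 (95% interval 0.04 to 2.09, adjusted p 0.0616), and was called with any of 4 livers left out, guinea pig replicates 1 and 2, Damaraland mole-rat replicate 2 and naked mole-rat replicate 1 (1.07 to 1.35). The neighbours guinea pig and mouse differed by 0.18 (95% interval -1.22 to 1.58, adjusted p 0.835). The calls depended on single animals. Without guinea pig replicate 2 the average contrast fell to 0.97 and the naked mole-rat was 1.05 above guinea pig (adjusted p 0.0884), so that both calls were lost. Without guinea pig replicate 1 Damaraland mole-rat was called 1.56 above guinea pig (adjusted p 0.00652). Without mouse replicate 1 the average contrast had an adjusted p of 0.0582, and naked mole-rat minus mouse, 1.54, one of 0.128. Over the 14 fits that each left out 1 liver, the contrast of mole-rats and outgroups ran from 0.97 to 1.76.

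Slc27a5 (ENSMUSG00000030382) encodes the bile acyl-CoA synthetase that activates bile acids for conjugation. Its values were 15.17, 15.49, 15.40 and 15.51 in naked and 15.64, 15.31, 15.18, 15.21 and 15.04 in Damaraland mole-rats. They were 13.88, 13.48 and 14.43 in guinea pigs and 14.11 and 14.01 in mice. The species fell into a high pair and a low pair: the mole-rats overlapped each other, the outgroups overlapped each other, and the pairs did not overlap. The contrast was 1.34 (SE 0.17, adjusted p 1.97e-06). Within the pairs, naked minus Damaraland mole-rat was 0.12 (95% interval -0.30 to 0.54, adjusted p 0.617) and guinea pig minus mouse -0.13 (95% interval -0.70 to 0.44, adjusted p 0.706).

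Baat (ENSMUSG00000039653), the enzyme that joins the activated bile acid to taurine or glycine, showed steps between the species. Naked mole-rats were at 14.17, 14.20, 14.02 and 14.11 and Damaraland mole-rats at 13.07, 13.42, 13.40, 13.58 and 13.55. Guinea pigs were at 12.52, 11.69 and 12.45, and mice at 11.99 and 11.64. Every naked mole-rat lay above every Damaraland mole-rat, and these above all outgroup livers, while guinea pig and mouse overlapped. The mole-rats were higher by 1.75 (SE 0.15, adjusted p 2.06e-08), and naked exceeded Damaraland mole-rat by 0.72 (95% interval 0.35 to 1.10, adjusted p 0.00182), under the size threshold. Mean scaled reads were 17858, 10871, 4879 and 3589 in naked mole-rat, Damaraland mole-rat, guinea pig and mouse. Without guinea pig replicate 2, the liver with the fewest scaled reads of albumin, Damaraland mole-rat was 0.92 above guinea pig (adjusted p 0.00036), just under the size threshold, which left 2 genes called in each pairing of a mole-rat with an outgroup.

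For these 3 enzymes the hepatocyte marker sums given above move with the mole-rats too, and their part in the differences was not tested. The average contrasts of the 7 markers had a median of 0.43 and ran from -0.77 for Ttr to 2.59 for Apoa1, with 0.92 for albumin (adjusted p 0.0133).

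Abcb11 (ENSMUSG00000027048) encodes the bile salt export pump, which moves conjugated bile acids into the canaliculus. The guinea pig stood apart from the others. Guinea pig values were 15.54, 15.46 and 15.92, against 13.96, 14.05, 14.16 and 13.92 in naked mole-rats. Damaraland mole-rats had 14.60, 14.45, 14.30, 14.48 and 14.10, and mice 13.89 and 13.83. All 3 guinea pigs were above the other 11 livers. Naked mole-rat minus guinea pig was -1.62 (SE 0.19, adjusted p 6.99e-07), Damaraland mole-rat minus guinea pig -1.26 (SE 0.18, adjusted p 8.08e-06), and guinea pig minus mouse 1.78 (SE 0.22, adjusted p 2.76e-06). In mean scaled reads guinea pig was at 51607, between 2.40-fold and 3.47-fold above the other species. The average contrast of -0.55 (adjusted p 0.00198) was under the size threshold. Naked mole-rat minus mouse was 0.16 (95% interval -0.28 to 0.60, adjusted p 0.521).

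Nr1h4 (ENSMUSG00000047638), the bile acid receptor gene, had no called difference in any of the 7 contrasts. Values ran from 10.93 to 11.36 in naked mole-rats, from 11.02 to 11.41 in Damaraland mole-rats and from 11.34 to 11.72 in guinea pigs, and were 10.77 and 10.90 in mice. The average contrast was 0.003 (95% interval -0.24 to 0.25, adjusted p 0.986), an interval that holds no difference of the called size. The widest pairwise difference was guinea pig minus mouse at 0.67 (95% interval 0.28 to 1.07, adjusted p 0.00507).

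Nr0b2 (ENSMUSG00000037583) was higher in mole-rats by 1.78 (SE 0.34, adjusted p 0.000183), with the highest mean in Damaraland mole-rats. This small receptor lacks a DNA-binding domain and represses other nuclear receptors. Its values were 12.19, 10.51, 11.33, 11.32 and 11.94 in Damaraland and 10.47, 10.78, 9.24 and 11.19 in naked mole-rats. Guinea pigs had 9.53, 8.79 and 8.57 and the 2 mice 10.17 and 8.55. Damaraland mole-rats did not overlap either outgroup, whereas naked mole-rat replicate 3 lay below guinea pig replicate 1 and mouse replicate 1. Damaraland mole-rat exceeded guinea pig by 2.49 (SE 0.44, adjusted p 8.37e-05) and mouse by 2.09 (SE 0.50, adjusted p 0.00152), and the latter call was lost without mouse replicate 2 (1.28, adjusted p 0.0864). Naked mole-rat exceeded guinea pig by 1.46 (adjusted p 0.00983) but was not called against mouse (1.06, 95% interval -0.04 to 2.15, adjusted p 0.0833). Without mouse replicate 1 or naked mole-rat replicate 3 that difference was 1.87 or 1.45 and was called (adjusted p 0.0173 and 0.0135).

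**Figure D2:**
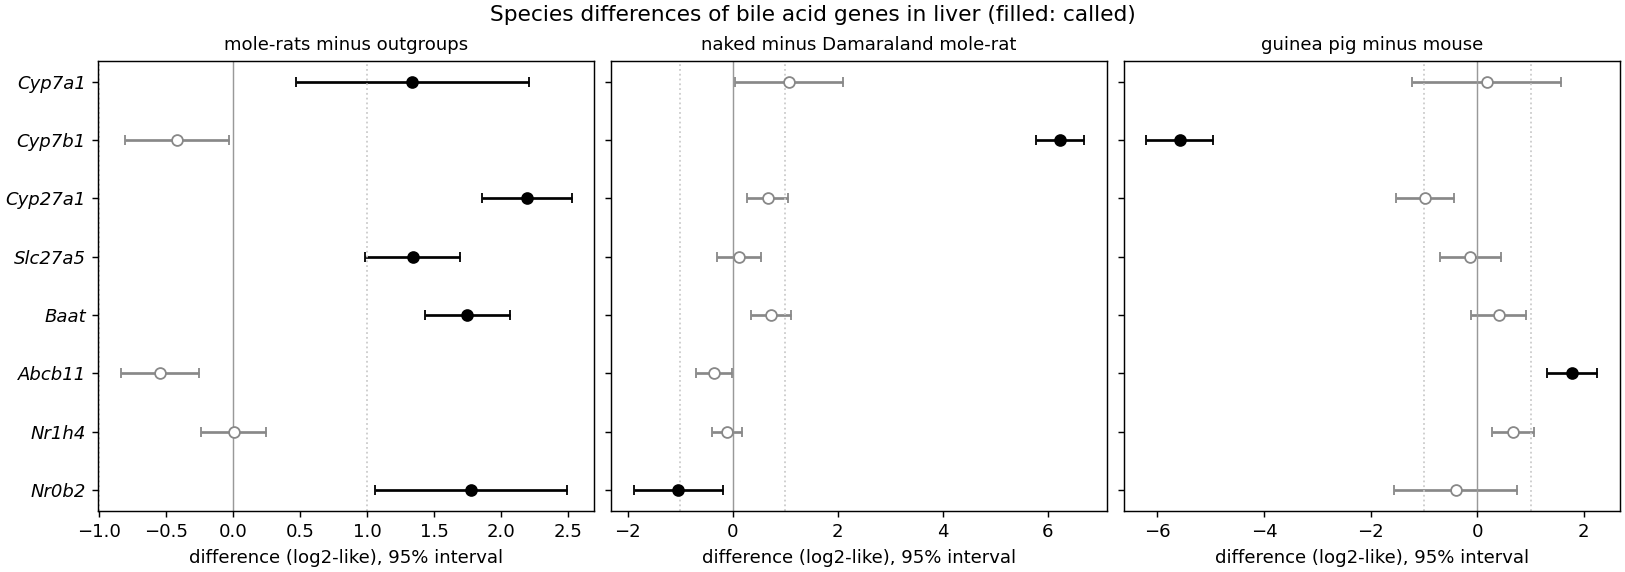
Differences (log2-like, horizontal axis, scale differing by panel) of the 8 bile acid genes in liver for 3 contrasts, with 95% intervals from limma. Filled points passed both the adjusted p and the size threshold of 1 (dotted lines). Mole-rats minus outgroups has 5 filled points, all positive, and Cyp7b1 is the widest difference in both other panels.

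Between the mole-rats themselves, 2 of 8 genes were called, Cyp7b1 higher in naked and Nr0b2 higher in Damaraland mole-rat, where 34.2% of all genes tested were called, 16.6% higher and 17.6% lower in naked mole-rat. The Nr0b2 difference of -1.04 (adjusted p 0.0304) lay close to the size threshold and was lost with 4 of the 14 livers left out in turn, namely Damaraland mole-rat replicates 1 and 5 and naked mole-rat replicates 1 and 3. Between guinea pig and mouse 2 of 8 were called, Abcb11 higher and Cyp7b1 lower in guinea pig, where 37.2% of all genes were called, 18.8% higher and 18.4% lower. Naked mole-rat against guinea pig gave 6 of 8 higher, all but Abcb11 and Nr1h4, and 1 lower, Abcb11, where 37.8% of all genes were called, 19.4% higher and 18.5% lower. Against mouse 4 of 8 were higher in naked mole-rat, Cyp7a1, Cyp27a1, Slc27a5 and Baat, and 0 lower, where 41.2% of all genes were called, 21.1% higher and 20.1% lower. In Damaraland mole-rat Cyp27a1, Slc27a5, Baat and Nr0b2 were the 4 of 8 called higher against either outgroup. The 1 called lower was Abcb11 against guinea pig (36.2% of all genes called, 19.1% higher and 17.1% lower) and Cyp7b1 against mouse (39.2%, 20.9% higher and 18.4% lower). The pairings share libraries, so these counts are not independent.

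The 8 genes fell into distinct ranges of variation among animals of one species. The residual SD about the species means was 0.92 for Cyp7a1 and 0.75 for Nr0b2, at the 99.6 and 99.0 percentile of the genes tested, where the median gene had 0.26. The highest guinea pig liver had 9.70-fold the Cyp7a1 scaled reads of the lowest (3591 against 370). For Nr0b2 the highest naked mole-rat liver had 4.06-fold the scaled reads of the lowest, and the mice differed 3.31-fold.

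Cyp7b1 followed, with a residual SD of 0.37 at the 83.2 percentile. The enzymes Cyp27a1, Slc27a5 and Baat lay near the middle, with 0.27, 0.27 and 0.26. Abcb11 and Nr1h4 were the steadiest, with 0.17 each, at the 12.0 and 10.4 percentile. In the Damaraland mole-rats replicate 2 had the highest Cyp7a1 and the lowest Nr0b2 of its group, and replicate 1 the lowest Cyp7a1 and the highest Nr0b2. Naked mole-rat replicate 3 likewise had the highest Cyp7a1 and the lowest Nr0b2, and mouse replicate 2 the higher Cyp7a1 and the lower Nr0b2 of the 2 mice. However, naked mole-rat replicate 1 had the lowest Cyp7a1 (11.14) and, after replicate 3, the lowest Nr0b2 (10.47). Guinea pig replicate 1 was highest in both. A relation between the 2 genes was not tested.

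Heart libraries of the same species (3 from naked and 5 from Damaraland mole-rats, 3 from guinea pigs, 3 from mice) came in part from the same animals: 10 animals gave both tissues. They gave a second reading of the same rows, without a test, since the tissues were normalised separately. Heart libraries held 4089633 to 26985779 recovered reads. Mitochondrially encoded genes took 22.7% to 26.9% of these in naked mole-rat and 22.4% to 25.6% in mouse. In guinea pig they took 5.42% to 18.0% and in Damaraland mole-rat at most 0.0279%, so levels relative to all reads are lowered unevenly between species. Cyp27a1 was present in heart, with 119 to 161 reads per 1000000 recovered reads (written below as rpm) in naked mole-rat, 92.3 to 158 in Damaraland mole-rat, 77.5 to 148 in guinea pig and 6.09 to 8.12 in mouse. All mouse hearts were below all others for Cyp27a1. In liver, by contrast, the lowest species for this gene was the guinea pig, with 219 to 268 rpm.

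For Cyp7b1 the order of the species in heart was not that of liver. Damaraland hearts held 82 to 186 reads (7.58 to 12.6 rpm), while their livers held 23 to 31 reads (1.44 to 2.60 rpm). In rpm and in scaled reads all Damaraland hearts were above all hearts of the other species, narrowly so for guinea pig. The lowest Damaraland heart had 108 scaled reads and the highest guinea pig heart 89.7. Unscaled reads overlapped, with 39 to 117 in guinea pig hearts. Mouse hearts held 9 to 15 reads (0.36 to 0.56 rpm), against 236 to 537 rpm in mouse liver. Reads were thus assigned to the Damaraland row of Cyp7b1 in heart at a higher rate than in liver, and to the mouse row at a far lower one. Guinea pig had 2.34 to 7.25 rpm in heart and 3.54 to 6.95 in liver, overlapping ranges.

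**Figure D3:**
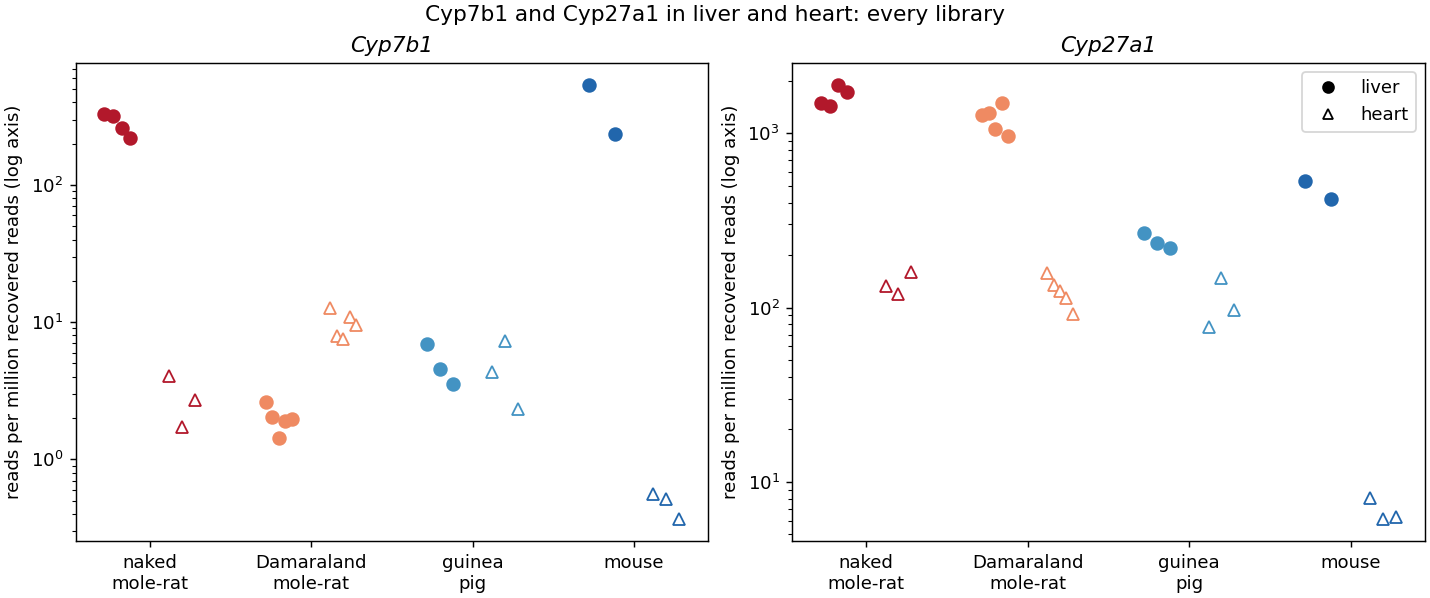
Reads per 1000000 recovered reads (log axis) of Cyp7b1 and Cyp27a1 in each liver (filled circles) and heart (open triangles), by species. Damaraland Cyp7b1 is higher in all 5 hearts than in all 5 livers, whereas in naked mole-rat and mouse the livers are higher; Cyp27a1 is lowest in mouse heart.

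Genes mostly restricted to liver were also read in heart, at lower levels. Slc27a5 had 175 to 740 reads (18.4 to 42.8 rpm) in naked mole-rat hearts, 55 to 144 reads in Damaraland hearts, 9 to 25 in guinea pig hearts and 1 to 9 in mouse hearts. The sum of the hepatocyte markers was likewise highest in naked mole-rat and lowest in mouse hearts, at 11046 to 30471 scaled reads in naked mole-rat hearts, 3398 to 6810 in Damaraland, 3820 to 5423 in guinea pig and 344 to 1246 in mouse hearts. Between Damaraland and guinea pig hearts these sums overlapped, while the reads and rpm of Slc27a5 did not. The part of these markers in the heart reads of Slc27a5, Baat and Abcb11 was not tested. Baat was at 0 reads in 2 of 3 mouse hearts.

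Other genes of the pathway were taken from lists of 14 enzymes, 14 transporters and 16 regulators. Among the enzymes 10 were tested, of which 2 were called higher and 2 lower in mole-rats (median difference -0.20). Among the transporters 10 were tested, of which 4 were called higher and 3 lower (median 0.17). All 16 regulators were tested, of which 1 was called higher and 1 lower (median 0.31). Over all genes tested the median was 0.02 and 28.1% were called in either direction.

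Of the enzymes, Cyp39a1, an oxysterol 7-alpha-hydroxylase, had the largest difference, 3.60 higher in mole-rats (SE 0.12, adjusted p 1.38e-13). Its scaled reads were 3463 to 3851 in naked and 1758 to 2646 in Damaraland mole-rats, against 103 to 149 in guinea pigs and 296 to 315 in mice. Acox2, the peroxisomal oxidase that begins side-chain shortening, was higher by 2.32 (SE 0.18, adjusted p 5.46e-09). Both were called higher in each pairing of a mole-rat with an outgroup, like Cyp27a1, Slc27a5 and Baat. Hsd3b7, the dehydrogenase that follows 7-alpha-hydroxylation, was lower in mole-rats, at -1.93 (SE 0.15, adjusted p 6.23e-09), with naked mole-rat called below each of the other 3 species. Its difference of Damaraland mole-rat minus guinea pig was -0.86 (adjusted p 0.000898), under the size threshold. Abcd3, a peroxisomal membrane carrier, had -1.14 (SE 0.16, adjusted p 9.14e-06), a difference carried by mouse, since neither mole-rat was called against guinea pig (-0.17 and -0.09).

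Of the transporters, the basolateral exporter Abcc4 was higher by 3.77 (SE 0.22, adjusted p 1.58e-10) and was called in each pairing. Its scaled reads were 2234 to 4664 in naked and 388 to 1089 in Damaraland mole-rats, against 81.0 to 92.3 in guinea pigs and 70.3 to 70.8 in mice. Abcc3, a second basolateral exporter, was higher by 1.78 (SE 0.39, adjusted p 0.000664), although Damaraland mole-rat minus mouse was -2.23 (adjusted p 0.00283). Naked mole-rat minus mouse was 0.88 (adjusted p 0.209), so neither mole-rat was called above mouse. Guinea pig was the lowest species for Abcc3, with a mean of 8.08 against 12.99 in mouse. The most negative differences were those of Abcg2, a canalicular exporter, at -3.48 (SE 0.24, adjusted p 1.35e-09) and called in each pairing, and Abcg5, a subunit of the biliary cholesterol exporter, at -1.56 (SE 0.19, adjusted p 1.7e-06). For Abcg5 Damaraland mole-rat minus guinea pig was -0.24 (adjusted p 0.405), not called. Guinea pig minus mouse was -1.82 (adjusted p 9.07e-05), called. The average contrast of the partner subunit Abcg8 was 0.07 (95% interval -0.37 to 0.52, adjusted p 0.769).

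Of the regulators, Klb, the co-receptor through which the gut hormone FGF15/19 acts on hepatocytes, was higher in mole-rats by 1.26 (SE 0.22, adjusted p 7.27e-05). Without guinea pig replicate 2 its contrast was 0.97, just under the size threshold. Its receptor partner Fgfr4 was 0.73 higher (adjusted p 9.4e-05), under the size threshold. Mafg, a small repressor that FXR induces, was lower, at -3.06 (SE 0.18, adjusted p 2.08e-10), and was called in each pairing.

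**Figure D4:**
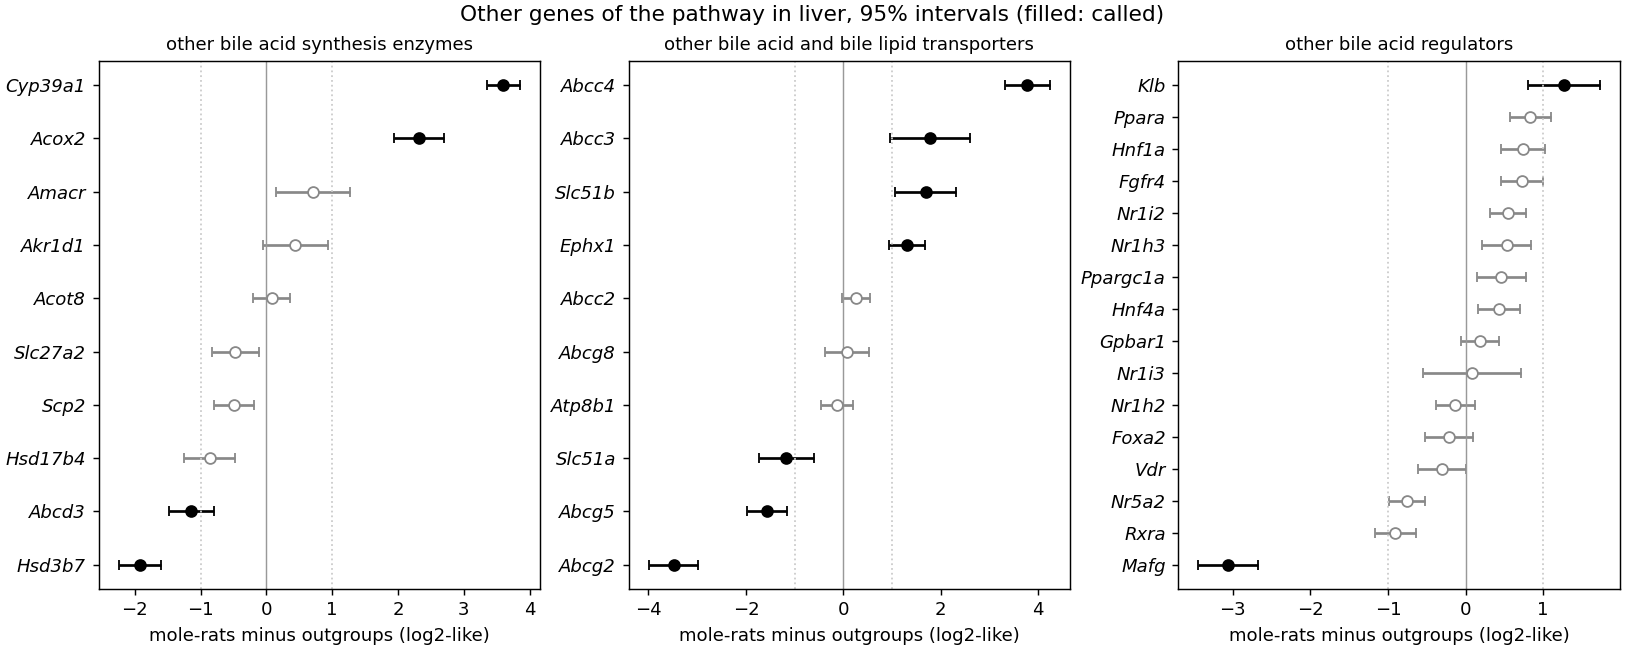
Mole-rats minus outgroups (log2-like, horizontal axis, scale differing by panel) in liver for the other tested enzymes, transporters and regulators of the pathway, with 95% intervals from limma. Filled points were called; called genes lie on both sides of 0 in each panel, and 14 of the 16 regulators lie inside the thresholds of 1.

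Tested genes whose species means were most like those of each bile acid gene were found by the root mean square difference of the 4 centred means. For Cyp27a1 these were Ednrb (0.106) and Gckr (0.181), where the median over tested genes was 1.31. For Cyp7b1 they were Acacb (0.251) and Dnaja1 (0.620), where the median was 3.04. Acacb, the mitochondrial acetyl-CoA carboxylase, had means of 11.46 in naked mole-rat and 11.98 in mouse and of 5.90 in Damaraland mole-rat and 6.21 in guinea pig. Dnaja1 had means of 11.32 in naked mole-rat and 12.08 in mouse, against 4.59 in Damaraland mole-rat and 4.81 in guinea pig. Its low means lay near the 0-read value of 4.29. As for Cyp7b1, the assignment of reads to the Dnaja1 row could not be checked. The nearest for Cyp7a1 were Fam49b (0.0388) and Kdelr1 (0.0716), and for Nr0b2 Lmbr1 (0.0432) and Trpm2 (0.0635).

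The remaining profiles had close matches as well. For Slc27a5 the nearest were Acss1 (0.0494) and Tmem205 (0.0587), and for Baat Rpl15 (0.0653) and Rtca (0.0700). Abcb11 was nearest to Neil2 (0.0646) and Foxp3 (0.0687), and Nr1h4 to Mettl7b (0.0359) and Ppia (0.0397). Some matches lay at low levels. Species means ran from 5.97 to 7.68 for Neil2, from 4.87 to 6.52 for Foxp3 and from 5.51 to 7.11 for Acss1. Those of Abcb11 ran from 13.86 to 15.64 and those of Slc27a5 from 13.93 to 15.39. On this scale an equal step is a larger fold at low levels, so Neil2, Foxp3 and Acss1 match in values but not in folds. The measure rests on 4 species means, and a match says nothing of shared control.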

How the data were processed

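The deposited liver and heart tables hold variance-stabilised, log2-like values; cutadapt, Salmon, DESeq2 and the build GRCm38 are named in the submitters' processing notes, without role or order. The assignment of genes across species is not given in the sources used here. The 26 columns of other series were not used. Inverting the transform gave whole numbers, taken as reads, for 100% of values in every library (tolerance 0.001).

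The test on liver values used limma 3.58.1 (R 4.3.3), with a coefficient per species, a variance trend and Benjamini-Hochberg adjustment. Genes with a mean below the 0-read value + 1 were left out. Figures used matplotlib 3.10.9. The fit was tested on simulated reads in which, unlike these data, species differed only by changes set in the mole-rats. It called 98.1% of 4-fold changes, 26.6% of 2-fold changes and 0% of unchanged genes. A 2-fold change lies at the size threshold, and 92.6% of these had an adjusted p under 0.05. The simulated spread followed the mean level of a gene only. These shares therefore do not describe genes that vary as widely as Cyp7a1 and Nr0b2.

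Members and lists were chosen with earlier results of these data known. Named were all members, per list up to 2 called genes with the largest difference in each direction, and 2 nearest profiles per member; single marker genes, Abcg8, Fgfr4 and the genes of the closing section were added after their values were seen. Marker lists for other cell types are given by sums in the closing section.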

Additional observations from a re-analysis of the deposited data

How the results depend on the processing

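Counts of called members moved mainly with the size threshold. Shares of all genes called under the other settings are not given here, so these counts cannot be set against genes in general. Tested against a difference of 1, members called fell to 2 for mole-rats minus outgroups, 1 for naked minus Damaraland mole-rat, 4 for naked mole-rat minus guinea pig, and 2 each for naked mole-rat minus mouse, Damaraland mole-rat minus guinea pig and Damaraland mole-rat minus mouse. In all 4 pairings the count fell to 0 members with limma, 0 also at an unadjusted p under 0.05, and was 3 with voom at the usual thresholds. Without a size threshold it was 4 members for naked minus Damaraland mole-rat and 4 for guinea pig minus mouse. Of the other bile acid genes 13 were called; the count was 7 when tested against a difference of 1, and 26 with no threshold on size. Naked minus Damaraland mole-rat gave 1 member when centred on library medians, with robust variance, with array weights and with the replicate block, and 1 to 3 with each library left out. Same-numbered livers of different species had a mean correlation of deviations of 0.0008 over 16 pairs (-0.23 to 0.15). Differently numbered livers had 0.0005 over 55 pairs (-0.28 to 0.33). No pairing by number was seen, although so few livers per species cannot exclude one. With the block, naked mole-rat minus mouse gave 5 members, with Nr0b2 added.

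Of member differences, 633 kept direction and side of the threshold under the other alternatives, 19 lost a call, 11 gained one and 9 changed sign, and with a library left out 750 kept both, 10 lost a call, 9 gained one and 15 changed sign. Those that changed sign were not called. Slc27a5, naked minus Damaraland mole-rat, was -0.0761 under quantile normalisation and -0.0275 with voom without mitochondrial genes. Nr1h4, mole-rats minus outgroups, was -0.0428 under quantile normalisation, -0.0294 with array weights, -0.16 with voom without mitochondrial genes, and -0.0390 to 0.0561 with a library left out. Cyp7b1, naked mole-rat minus mouse, was 0.00133 with array weights, 0.0827 with the replicate block, and -0.68 to 0.49 with a library left out. Slc27a5, guinea pig minus mouse, was 0.14 with array weights and -0.38 to 0.10 with a library left out. Abcb11, naked mole-rat minus mouse, was -0.0707 with voom without mitochondrial genes. With a library left out, Cyp7a1 ran from -0.0151 to 1.56 for Damaraland mole-rat minus guinea pig and from -0.67 to 0.91 for guinea pig minus mouse, and Nr0b2 from -1.21 to 0.41 for guinea pig minus mouse. Leaving out a mouse leaves 1 mouse liver, assumed to vary like the other groups; the female Damaraland liver is replicate 4. The causes were not tested. Cyp7b1 rests on 23 to 31 reads in each Damaraland liver.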

Other observations

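The genes in this paragraph were chosen after their values were seen. Rxra, a partner of FXR on DNA, was lower in naked mole-rat than in every other species. The difference from Damaraland mole-rat was -2.07 (limma adjusted p 1.47e-09), that from guinea pig -2.07 (adjusted p 8.86e-09) and that from mouse -1.81 (adjusted p 2.59e-07). Its scaled reads were 2124 to 2853 in naked mole-rats, 8664 to 10571 in Damaraland mole-rats, 8108 to 11299 in guinea pigs and 7706 to 8665 in mice. Nr1h4 itself had no called difference in the same livers. Rxra was not alone among the listed regulators. Against Damaraland mole-rat, guinea pig and mouse in turn, naked mole-rat was also called lower for Nr5a2 (-1.48, -1.55 and -1.44) and Mafg (-1.54, -3.87 and -3.78). For Nr1h3 it was called higher (1.89, 1.20 and 1.76). The share of all genes with such a pattern is not given here.

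The basolateral export dimer Slc51a and Slc51b differed between species in each subunit. Slc51b had 4 and 8 reads in the mouse livers but 150 to 960 in those of the other species, and mouse was called below each of them (guinea pig minus mouse 4.32, adjusted p 6.34e-07). Slc51a was highest in guinea pig, with 430 to 650 reads per liver, against 17 to 229 in naked mole-rats, 0 to 6 in Damaraland mole-rats and 1 to 5 in mice. The apical uptake carrier Slc10a2, on the list of bile duct markers, had 589 and 612 reads in the mouse livers, 0 reads in all naked mole-rat and guinea pig livers and 0 to 2 in Damaraland livers. It was below the filter on low values and was not tested.

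Summed scaled reads of the other cell type markers are given as values. Bile duct markers summed to 2309 to 3226 in naked mole-rat, 162 to 528 in Damaraland mole-rat, 968 to 2184 in guinea pig and 818 to 1387 in mouse livers. Single genes carried these sums: Epcam, at 2290 mean scaled reads, most of that in naked mole-rat, and Slc10a2 and Spp1, at 569 and 480, most of that in mouse. Krt19 (229 against 1224) and Krt7 (2.27 against 51.1) were called lower in naked mole-rat than in guinea pig. With the species in the order naked mole-rat, Damaraland mole-rat, guinea pig and mouse, endothelial markers summed to 7220 to 9324, 6808 to 8463, 11247 to 13558 and 3597 to 4872. Stellate cell and fibroblast markers summed to 4715 to 8033, 3936 to 5361, 6217 to 8872 and 4182 to 5055, and Kupffer cell and leukocyte markers to 809 to 1779, 1067 to 1906, 1557 to 2616 and 1512 to 1743. Pericentral hepatocyte markers summed to 141646 to 263321, 27682 to 81569, 96768 to 271616 and 111687 to 155323, and periportal ones to 152037 to 230008, 105034 to 131096, 122483 to 175048 and 161884 to 239343. The low pericentral sum of Damaraland mole-rat rested on Cyp2e1, with 13881 mean scaled reads against 188180 in naked mole-rat. Damaraland livers differed widely in Cyp2e1, with an SD of 3.83 about a mean value of 10.89. In contrast, the means of Glul (11379 against 7114, not called) and Oat (5710 against 2358, called) were larger in Damaraland mole-rat. Heart muscle markers summed to 760 to 1463, 1594 to 3259, 421 to 2984 and 815 to 1193.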
